A study of Mus musculus with 4 samples.

Results

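Expression of 10 Hippo pathway genes was described in the embryonic mouse stomach at E15.5, a stage counted in days of gestation. The genes were taken by symbol from the deposited table, which holds 51098 genes, and each of the 10 symbols was found. They encode the coactivators YAP (Yap1) and TAZ (Wwtr1), the TEAD transcription factors (Tead1, Tead2, Tead3 and Tead4), the kinases Lats1 and Lats2, the TEAD cofactor Vgll4 and merlin (Nf2). Total RNA depleted of ribosomal RNA was sequenced from 4 samples of whole stomach. In the group called Fgf9_null here, 2 samples carried the genotype Fgf9LacZ/LacZ, and in the group called Fgf9_het 2 samples carried Fgf9LacZ/+, so that every sample has at least 1 copy of the LacZ allele of Fgf9, which encodes a secreted fibroblast growth factor. The sample titles abbreviate the heterozygous group as WT, and both groups are numbered 2 and 3. The sources used here name neither the strain, nor the number of embryos behind a sample, nor the structure of the allele.

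The Hippo pathway is a kinase cascade that restrains organ growth. The kinases MST1 and MST2 activate LATS1 and LATS2, which phosphorylate YAP and TAZ and thereby keep them in the cytoplasm or send them to degradation. When the kinases are quiet, YAP and TAZ enter the nucleus and bind TEAD proteins on DNA, and in the gut the pathway is known for its role in the growth of the mesenchyme and the balance of progenitor and differentiated cells.

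TEAD proteins recognise DNA that contains the letters CATTCC, and this motif was searched on both strands (CATTCC or GGAATG, which do not overlap one another) in the 250 bases before the start site of each gene in RefSeq promoters (GRCm38.p6). Of the 10 genes, 8 had a promoter entry, and 4 of these, Yap1, Wwtr1, Tead3 and Vgll4, held the motif in at least 1 window. Among all 27025 genes with an entry, 14.4% did, and of all 32851 windows 12.6% did, against 6 of 13 windows of the 8 genes, some of which overlap. The windows of both coactivators and of Vgll4 are printed with that of Ccn1, a textbook YAP target, to show where the letters stand. They run 5′ to 3′ on the strand of the gene, with the motif in capitals. A match of these letters is not evidence of binding.
Yap1 (chr9:8004597-8004846, minus strand): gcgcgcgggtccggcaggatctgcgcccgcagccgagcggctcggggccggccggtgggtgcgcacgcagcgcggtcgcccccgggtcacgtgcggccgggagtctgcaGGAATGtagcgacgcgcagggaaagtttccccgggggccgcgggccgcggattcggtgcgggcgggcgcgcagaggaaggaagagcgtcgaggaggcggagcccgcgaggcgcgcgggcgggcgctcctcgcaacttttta
Wwtr1 (chr3:57575911-57576160, minus strand): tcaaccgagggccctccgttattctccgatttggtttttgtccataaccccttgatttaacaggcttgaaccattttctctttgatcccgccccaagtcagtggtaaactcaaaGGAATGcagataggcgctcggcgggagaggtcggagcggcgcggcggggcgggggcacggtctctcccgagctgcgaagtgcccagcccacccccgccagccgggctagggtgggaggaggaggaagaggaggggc
Vgll4 (chr6:114969204-114969453, minus strand): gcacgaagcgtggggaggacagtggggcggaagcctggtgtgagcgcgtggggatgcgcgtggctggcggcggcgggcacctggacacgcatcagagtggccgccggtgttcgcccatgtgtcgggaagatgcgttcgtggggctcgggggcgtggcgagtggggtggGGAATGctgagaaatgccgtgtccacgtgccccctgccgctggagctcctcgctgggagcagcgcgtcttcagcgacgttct
Ccn1 (chr3:145649986-145650235, minus strand): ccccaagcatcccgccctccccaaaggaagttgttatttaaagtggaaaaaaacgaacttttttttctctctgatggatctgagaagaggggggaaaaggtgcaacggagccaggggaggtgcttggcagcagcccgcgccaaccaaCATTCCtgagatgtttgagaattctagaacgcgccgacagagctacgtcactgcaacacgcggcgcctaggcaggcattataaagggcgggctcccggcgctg
The first base of the motif lay 141 bases before the start site in Yap1, 136 in Wwtr1, 82 in Vgll4 and 103 in Ccn1. Wwtr1 has a second annotated start site, from which the same match lay 170 bases. The Vgll4 window lies within the annotated span of the gene (114860628 to 114969994), downstream of its outermost start.

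Column totals were 19269851 to 22713416 estimated counts, and a floor of 3 counts corresponded to 0.132 to 0.156 CPM (reads scaled to a common column total). Fgf9 (chromosome 14, 58070547 to 58112720, GRCm38) was counted at 133 reads (replicate 2) and 131 reads (replicate 3) under each genotype label, so its count does not separate the labels. Columns of the same number hold nearly the same counts for most genes: the median chi-square per gene between them was 0.0214 in replicate 2 and 0.0204 in replicate 3, against 1.02 to 1.07 between columns of different number, and it was under 1 for 99.4% and 99.3% of genes. A few genes did differ between same-numbered columns. The mean over all genes was 4.46 and 4.64, against 5.50 to 10.6 for columns of different number, and 97.8% and 97.5% of its sum lay in Rn7s1 and Rn7s6, with log2 folds of 1.03 and 5.47 in Fgf9_null over Fgf9_het. Both were singled out only with their values in view, and the cause of their difference was not tested. For the 10 genes the statistic per degree of freedom was 0.241 and 0.231 between columns of the same number and 2.96 to 4.31 between the others. For these genes the gap between same-numbered columns was thus smaller than sampling noise, and each such pair was counted as 1 sample. For most genes, then, the 4 names hold the counts of 2 libraries, called library 2 and library 3. How this arose is not known, and the genotype of either library is not resolved. Levels are therefore given by library. Stomach genes were present: Cym (chymosin) stood at 4692 ± 269 CPM, Muc6 (a gland mucin) at 228 ± 5.26 CPM and Barx1, a stomach mesenchyme factor named outside the rule for named genes, at 133 ± 4.73 CPM (SD, n = 2 libraries).

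The comparison named by the study, Fgf9_null against Fgf9_het, gave nearly the same reads under both labels for each of the 10 genes. Yap1 (chromosome 9, 7931999 to 8004596) had 3025 and 3539 reads in replicates 2 and 3 of Fgf9_null and 3027 and 3542 in Fgf9_het. Lats1 (chromosome 10, 7681214 to 7716460) had 2384 and 2613 reads against 2386 and 2616. Tead4 (chromosome 6, 128224288 to 128300823) had 46 and 78 reads under each label. The largest gap between same-numbered columns was 3.01 reads over the 10 genes, and Tead4 and Vgll4 had equal reads in both replicates within 0.01 reads. edgeR's quasi-likelihood test kept all 10 genes and called 0 of them at an adjusted p under 0.05, where 0% of 19987 tested genes were called. At an unadjusted p under 0.05 there were 0 of the 10 genes and 4 of all genes. The log2 fold of Fgf9_null over Fgf9_het lay between -0.0011 (Lats1, SE 0.0413) and 0.00033 (Vgll4, SE 0.0615), with an edgeR adjusted p of 1 for each. DESeq2 called 0 of the 10 genes and 3 of 29597 (0.0101%). A block for the replicate number gave 0 calls among the 10 and 6 among 19987 genes (0.03%) in edgeR. With edgeR's newer dispersion method, tried after seeing the data, the same block gave 1178 calls (5.89%), 200 higher and 978 lower in Fgf9_null, at a median size of 0.00597 on the log2 scale, and again 0 among the 10 genes (lowest adjusted p 0.85 in that edgeR fit). Because same-numbered columns hold nearly the same counts of these genes, the contrast sets each library against itself. For the 10 genes it measures nothing of the loss of Fgf9.

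**Figure D1:**
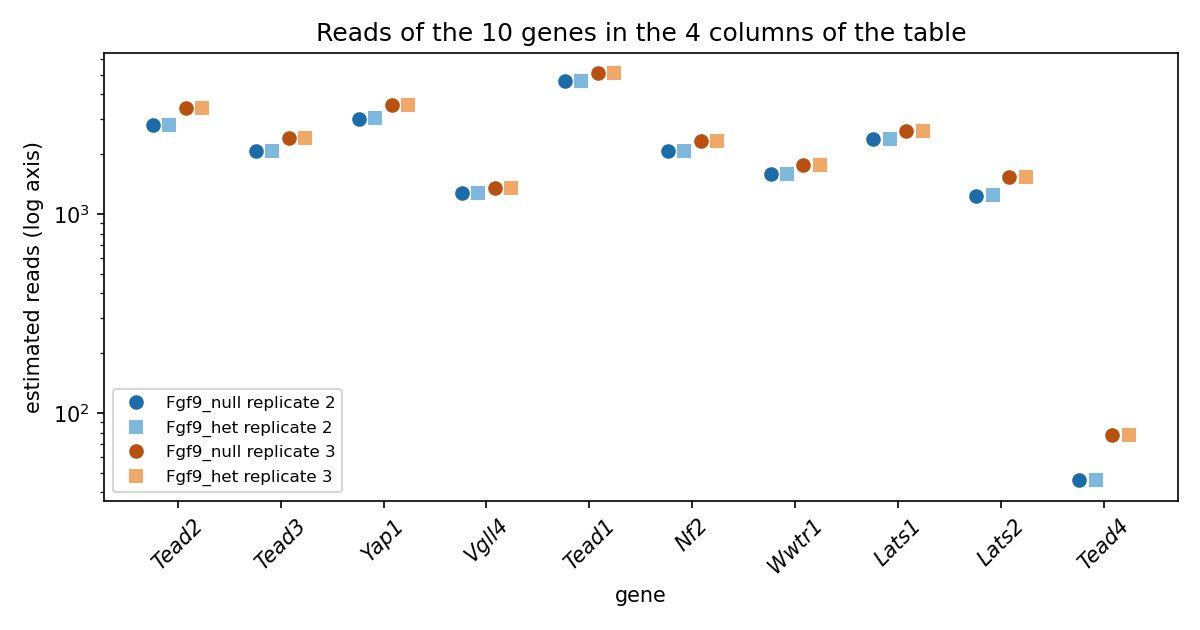
Estimated reads (log axis) of the 10 genes in the 4 columns of the table, circles for Fgf9_null and squares for Fgf9_het, blue for replicate 2 and orange for replicate 3. Circle and square of 1 number lie at the same height for every gene, with a largest gap of 3.01 reads.

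Both coactivator genes were well counted. Yap1 stood at 156 CPM in library 2 and at 157 CPM in library 3. The exact 95% Poisson intervals of its reads ran from 2919 to 3136 and from 3424 to 3659; they take in counting error alone. Wwtr1 (chromosome 3, 57455649 to 57575910) had 1591 and 1764 reads under Fgf9_null, 1591 and 1766 under Fgf9_het, and 82.0 and 78.2 CPM in libraries 2 and 3. The ratio of library 3 to library 2 was 1.01 for Yap1 and 0.954 (0.891 to 1.02) for Wwtr1, and both intervals included 1. To compare genes, CPM was divided by the length of the longest protein-coding transcript in kb (CPM per kb). On this scale Yap1 stood at 37.5 ± 0.156 and Wwtr1 at 17.1 ± 0.571 (SD, n = 2 libraries), and the level of Wwtr1 was 0.455 ± 0.0171 of that of Yap1. Yap1 lay above 92.1% and Wwtr1 above 76.2% of the 14304 coding genes with at least 1 CPM in both libraries, whose median was 7.92 CPM per kb. The gap between the coactivators rests on the length used: with the union of all exons, 9.26 kb for Yap1 and 4.78 kb for Wwtr1, the ratio was 0.992.

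Of the TEAD factor genes, Tead1, Tead2 and Tead3 were expressed at high levels and Tead4 was scarce. Tead1 (chromosome 7, 112679318 to 112906807) had the most reads of the 10 genes, 4653 and 5102 under Fgf9_null and 4655 and 5102 under Fgf9_het, or 240 and 226 CPM in libraries 2 and 3. Tead2 (chromosome 7, 45215753 to 45233644) had 2815 and 3417 reads against 2816 and 3417, or 145 and 151 CPM. Tead3 (chromosome 17, 28331671 to 28350817) had 2068 and 2424 reads against 2069 and 2423, or 107 CPM in both libraries. Library 2 was the higher one for Tead1 and the lower one for Tead2, and the interval of the ratio included 1 for Tead3 and, at 0.992 to 1.10, for Tead2. Tead4 reached 2.37 and 3.46 CPM in libraries 2 and 3, with Poisson intervals of 33.7 to 61.4 and 61.7 to 97.3 reads at unequal depth.

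Per length the order of the TEAD genes changed. Tead2 stood at 43.7 ± 1.31 CPM per kb, Tead3 at 38.6 ± 0.197, Tead1 at 23.4 ± 0.980 and Tead4 at 0.947 ± 0.249. Tead1 has the longest transcript, at 9.96 kb, so that its lead in reads did not carry over to the level per length. Of the summed TEAD level, Tead2 held 41.0% ± 0.931, Tead3 36.2% ± 0.0787, Tead1 21.9% ± 1.08 and Tead4 0.888% ± 0.228. Tead4 lay above 7.88% of coding genes, and Tead2 above 93.5%. Tead4 had the lowest share under all 4 lengths tried, from 0.352% to 4.81%. Tead2 had the highest share with the median length of coding transcripts (52.0%) and with the union of exons (47.7%). The APPRIS principal transcript, an isoform tagged as principal in the annotation, was a length chosen after seeing the data. With it Tead2 and Tead3 held 37.5% and 37.6%. The 4.81% of Tead4 came with this length, which is 0.52 kb for Tead4 against 3.08 kb for its longest coding transcript. The places of Tead1 and Tead3 changed with the length, Tead3 falling to 8.83% with the median length and to 24.6% with the union of exons.

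**Figure D2:**
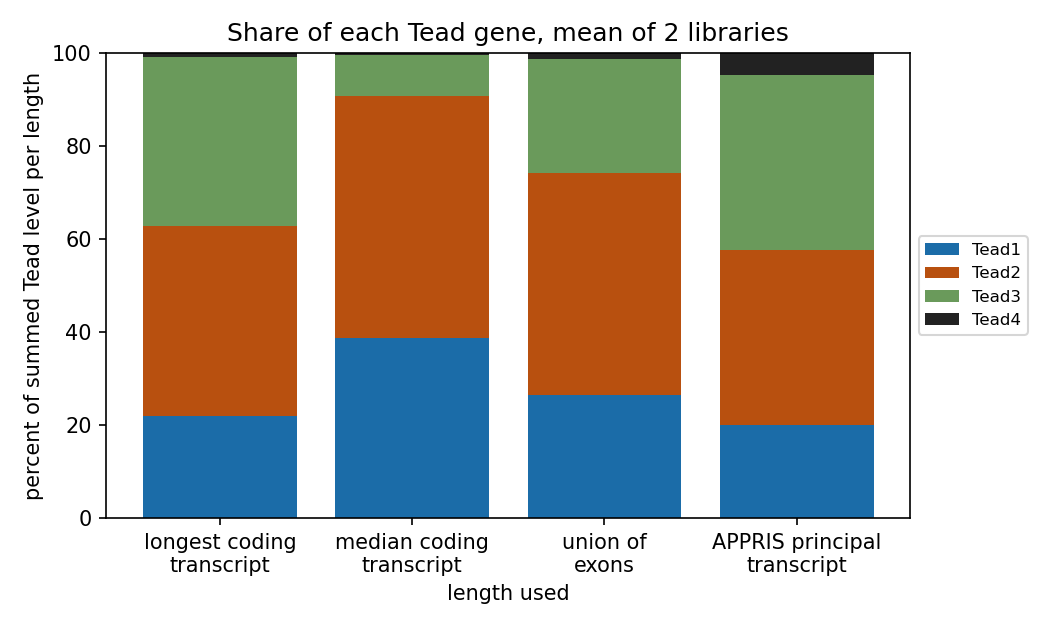
Share of each TEAD gene in the summed TEAD level per length (percent, mean of the 2 libraries) for each of the 4 transcript lengths. Tead4 is the thinnest layer in every bar, from 0.352% to 4.81%, while the shares of Tead1 and Tead3 shift with the length.

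The summed level of the kinase genes per length was lower than that of the coactivator genes. Lats1 was at 123 and 116 CPM in libraries 2 and 3. Lats2 (chromosome 14, 57689662 to 57758388) had 1241 and 1532 reads under Fgf9_null and 1242 and 1532 under Fgf9_het, or 64.0 and 67.9 CPM. Its locus lies 312 kb from Fgf9 on the same chromosome, and no other of the 10 genes is on chromosome 14. Of its exon bases, 42.4% are shared on the same strand with Gm49361, an annotated coding gene counted at 0.761 CPM, so reads of Lats2 may have been divided between the entries. Per length Lats1 stood at 16.6 ± 0.694 and Lats2 at 12.7 ± 0.530 CPM per kb. The ratio of Lats2 to Lats1 was 0.723 in library 2 and 0.814 in library 3. It was 2.67 with the median length of coding transcripts, which is 0.866 kb for Lats2, so the order of the kinases turned with that length. The summed level of both kinases was 0.536 ± 0.00107 of that of both coactivators, and that of the coactivators 0.512 ± 0.00763 of that of the TEAD genes. With the median length these ratios were 1.89 and 0.115.

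Nf2 encodes merlin, a membrane-linked scaffold that promotes LATS activation, and Vgll4 encodes a cofactor that competes with YAP for TEAD. Nf2 (chromosome 11, 4765845 to 4849536) had 2078 and 2332 reads under Fgf9_null and 2080 and 2334 under Fgf9_het, or 107 and 103 CPM in libraries 2 and 3. Vgll4 (chromosome 6, 114860628 to 114969994) had 1275 and 1361 reads under each label, or 65.7 and 60.3 CPM. Nf2 was near the same level in both libraries, and Vgll4 was the lower in library 3. Per length Vgll4 stood at 31.1 ± 1.89 and Nf2 at 22.3 ± 0.569 CPM per kb, above 89.6% and 83.2% of coding genes. With the union of exons this order reversed, at 11.7 for Vgll4 and 15.4 for Nf2.

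In the order per length, Tead2, Tead3, Yap1, Vgll4, Tead1, Nf2, Wwtr1, Lats1, Lats2 and Tead4 followed one another. Of the 9 genes other than Tead4, all lay above the coding median of 7.92 CPM per kb. Neighbours whose values in the libraries overlapped were Tead1 with Nf2 (22.7 to 24.1 and 21.9 to 22.7 CPM per kb) and Wwtr1 with Lats1 (16.7 to 17.5 and 16.1 to 17.1). The other neighbours did not overlap between libraries, but much of the order turned with the length, larger steps included. With the union of exons Vgll4 moved from place 4 to place 8, at 11.7 CPM per kb, below Tead1 at 17.2, and Wwtr1 from place 7 to place 4. With the median length of coding transcripts Yap1 moved from place 3 to place 7 and Lats2 from place 9 to place 3. Tead4 had the last place under all 4 lengths. From Lats2 to Tead4 the step was 13.4-fold.

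**Figure D3:**
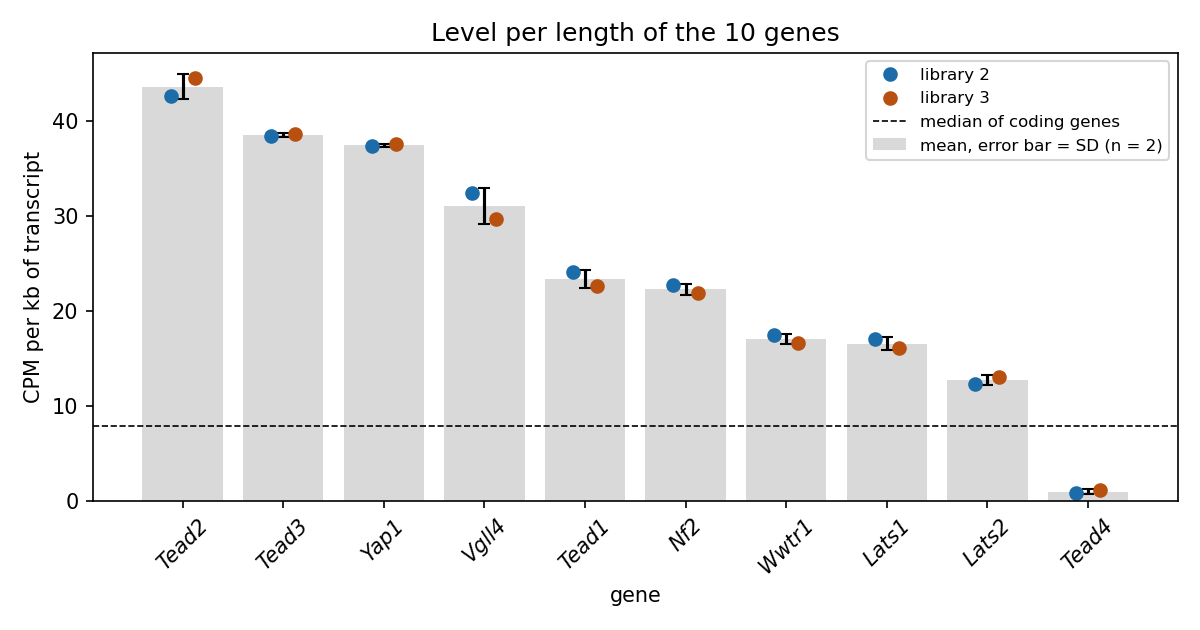
Level per length of the 10 genes in CPM per kb of the longest coding transcript, grey bars for the mean with SD (n = 2 libraries) and points for each library. Tead4 at 0.947 lies below the dashed median of coding genes at 7.92, and the other 9 genes lie above it, from 12.7 to 43.7.

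The libraries were then compared with each other. They are 1 sample each, so the differences carry no test, and the intervals (exact, conditional on the summed reads, 95%) cover counting error only. None of the 10 genes differed by more than 1.5-fold, where 3.88% of 16712 genes with at least 1 CPM in both libraries did. Higher in library 3 were 5 of the 10 genes and in library 2 the other 5, near the 45.8% and 54.2% of all genes, and the median ratio of library 3 to library 2 was 0.985 against 0.989 over all genes. The ratio was closest to 1 for Yap1, at 1.01 (0.958 to 1.06), and for Tead3, at 1.01 (0.949 to 1.07). For Vgll4 it was 0.918 (0.850 to 0.991), for Tead1 0.942 (0.906 to 0.981) and for Lats1 0.942 (0.891 to 0.997). The intervals of these genes lay below 1. With TMM-scaled library sizes Tead1 alone of them kept an interval below 1 (0.918 to 0.994), and those of Tead2 (1.01 to 1.11) and Tead4 (1.01 to 2.18) lay above it. Tead4 stood farthest from 1, at 1.46 (1.00 to 2.15), above the 95th percentile of all genes at 1.25, but with 46 and 78 reads the interval reaches from no difference to more than 2-fold.

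**Figure D4:**
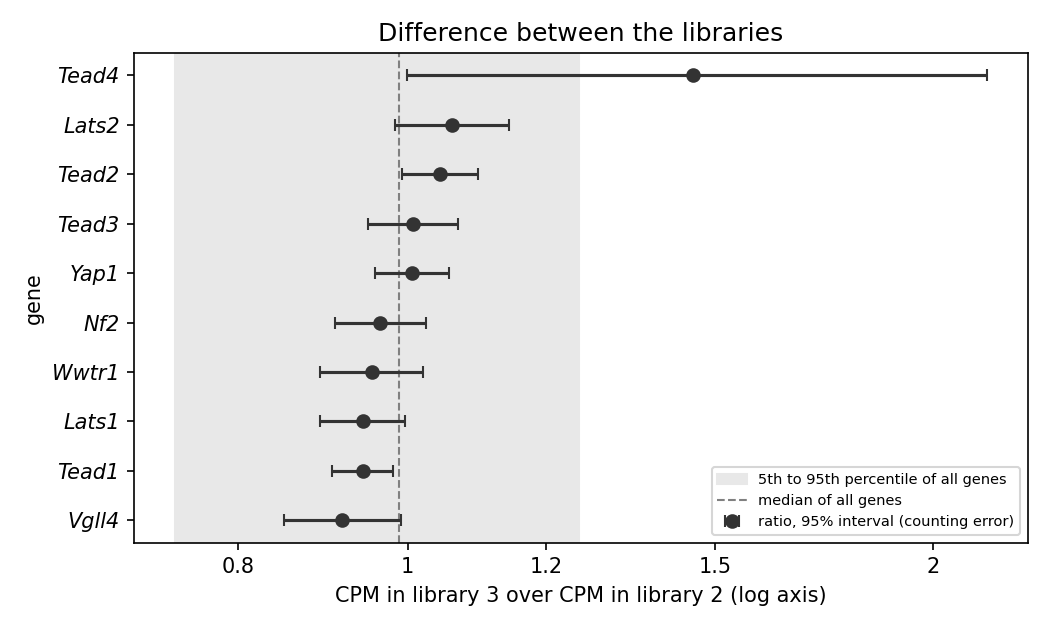
Ratio of CPM in library 3 to library 2 (log axis) for the 10 genes, with exact 95% intervals for counting error, the grey band spanning the 5th to 95th percentile of all genes (0.736 to 1.25). Tead4 at 1.46 lies outside the band with a wide interval, and the other 9 genes lie within 0.918 to 1.06.

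Other genes of the pathway were read from lists of related genes. Over these lists edgeR called 0 genes between the labels, where 0% of 19987 tested genes were called. No tested gene's log2 fold exceeded 0.00287 in size. For these genes too the contrast sets each library against itself. Of 17 partners of the kinases, all reached 1 CPM in both libraries and 12 lay above the coding median per length, with a list median of 11.8 CPM per kb. Map4k4, a kinase that can phosphorylate LATS, led with 45.4 ± 1.43 CPM per kb, followed by Taok2 at 34.1 ± 0.658, the NDR kinase gene Stk38 at 28.7 ± 1.05 and Mink1 at 22.2 ± 0.653. Map4k1, a kinase of blood cells, was lowest at 1.06 ± 0.159, and Tnik stood at 5.20 ± 0.00261. The core genes, named for their role and outside the rule, were at 9.39 ± 0.0751 for Stk3 (MST2), 8.57 ± 0.580 for Stk4 (MST1), 14.8 ± 0.700 for Sav1, the adaptor of MST kinases, and 21.1 ± 0.595 and 6.50 ± 0.330 for Mob1a and Mob1b, the LATS cofactors. The MST kinase genes thus stood below Lats1 and Lats2 on this scale. None of the 17 genes passed 1.5-fold between the libraries, where 3.88% of all genes did. Map4k1 (1.24, 0.851 to 1.81) and Taok3 (1.11, 1.02 to 1.22) stood farthest from 1.

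Upstream scaffolds and cadherins covered a wide range. Of 21 genes, 20 reached 1 CPM in both libraries and 17 lay above the coding median. The large cadherin genes Fat1 and Fat4 stood at 61.6 ± 1.81 and 39.5 ± 4.55 CPM per kb, and Dchs1, which encodes the binding partner of FAT4, at 31.6 ± 1.58. Tjp1, the tight junction gene of ZO-1, followed at 30.1 ± 0.963. Lowest were the Crumbs genes Crb1, at 11.0 and 16.1 reads or 0.104 ± 0.0169 CPM per kb, and Crb2 at 1.29 ± 0.275. None of the 20 genes passed 1.5-fold between the libraries, where 3.88% of all genes did. Crb2 (1.36, 1.09 to 1.70) and Dchs2 (0.762, 0.682 to 0.851) stood farthest from 1.

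Among 12 genes of proteins that restrain the kinases, 9 lay above the coding median. Ppp2r1a, the scaffold of protein phosphatase 2A, led with 81.7 ± 3.77 CPM per kb. The STRIPAK genes Strn4, Slmap and Strn3 stood at 29.2 ± 0.0788, 24.9 ± 2.95 and 24.1 ± 0.309, and Strip2 was lowest at 0.633 ± 0.0550, below Sike1 at 6.15 ± 0.134. Slmap was among the farthest from 1 between libraries, at 0.845 (0.802 to 0.891). The 14-3-3 proteins hold phosphorylated YAP and TAZ in the cytoplasm, and the list that holds their genes had the highest median of the pathway lists, 60.3 CPM per kb. Ywhae stood at 184 ± 13.4, Ywhaz at 152 ± 3.47, Ywhaq at 97.4 ± 0.761 and Ywhah at 76.1 ± 5.78. Btrc and Fbxw11, the F-box genes of YAP degradation, were lowest of that list at 13.9 ± 1.84 and 18.5 ± 0.542, and all 11 of its genes lay above the coding median.

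Of the relatives of Vgll4, Vgll3 alone was above the floor. It had 235 and 246 reads, or 1.64 ± 0.122 CPM per kb. Vgll1 had 0 reads, which allows up to 0.132 to 0.156 CPM per column, and Vgll2 had 1 and 0 reads. Vgll4 was thus the Vgll gene with the highest level, 31.1 against 1.64 CPM per kb for Vgll3.

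**Figure D5:**
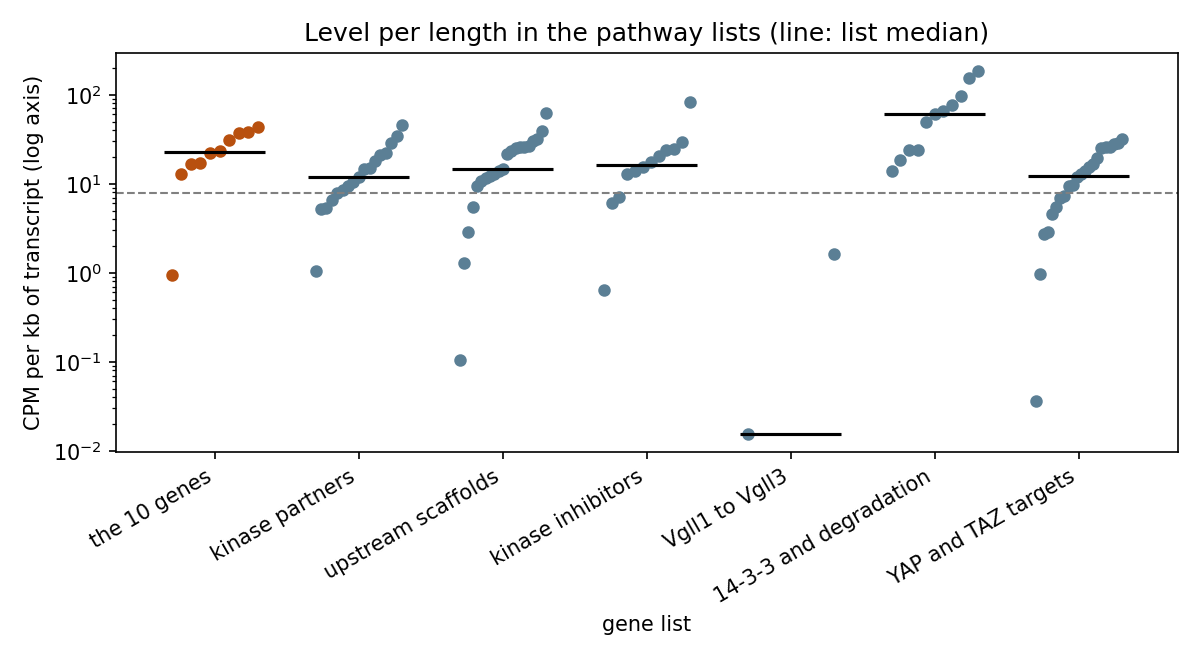
Level per length (CPM per kb, log axis, mean of the 2 libraries) of each gene in the pathway lists, with black lines for list medians and a dashed line for the median of coding genes at 7.92. The list with 14-3-3 genes is highest with a median of 60.3, the 10 genes have a median of 22.8, and Vgll1, at 0 reads, is not drawn.

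Genes known as YAP and TAZ targets in cell lines were mostly expressed. The list shares Lats2 with the 10 genes, and Amotl2, Ptpn14 and Fjx1 with the upstream scaffolds. Of its 22 genes, 21 reached 1 CPM in both libraries and 14 lay above the coding median, with a list median of 12.3 CPM per kb. Axl, a receptor tyrosine kinase gene, led with 31.6 ± 0.568, followed by the forkhead gene Foxf2 at 28.9 ± 4.80, Arhgef17 at 28.0 ± 0.278 and Amotl2 at 25.9 ± 1.18. The matricellular genes Ccn1 and Ccn2, the most used readouts of the pathway and named outside the rule, stood at 25.6 ± 3.63 and 16.7 ± 0.726. Ankrd1, another common readout, had only 2 and 1 reads, below the floor, and Nuak2 stood at 0.966 ± 0.136. Ankrd1 and Ccn1 both held the CATTCC letters in their windows, with 2 matches and 1 match. Of the 15 targets with a promoter entry 6 held the motif, against 14.4% of all genes.

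Between the libraries, 11 of the 21 targets were higher in library 2 and 10 in library 3, with a median ratio of 0.988 against 0.989 over all genes. Myof, which encodes the membrane repair protein myoferlin, was the 1 target past 1.5-fold, where 3.88% of all genes passed. It had 1730 reads in library 2 and 1048 in library 3, or 89.2 and 46.5 CPM, a ratio of 0.521 (0.482 to 0.563). Markers of squamous epithelium were also higher in library 2, 6 of 6 against 54.2% of all genes, with 5 past 1.5-fold. Their summed levels were 643 and 347 CPM in libraries 2 and 3. Skeletal muscle markers, at 14.4 and 10.6 CPM, lay on the same side. The part of squamous epithelium or of skeletal muscle in the value of Myof was not tested. In these whole stomachs fewer cells of a type and less RNA per cell cannot be told apart. Gadd45a, a stress response gene, was higher in library 3, at 4.69 and 6.62 CPM in libraries 2 and 3 (ratio 1.41, 1.08 to 1.85). Foxf2 (1.27, 1.17 to 1.36) and Ccn1 (1.22, 1.12 to 1.33) were also higher in library 3. The 5th to 95th percentile of all genes ran from 0.736 to 1.25. Ccn1 lay inside that band, Foxf2 just above it and Gadd45a above it.

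Several marker lists of other tissues differed between the libraries by more than most of the 10 genes. Over all genes with at least 1 CPM in both libraries, 45.8% were higher in library 3, 54.2% in library 2, and 3.88% passed 1.5-fold. Liver markers summed to 34.7 and 57.2 CPM in libraries 2 and 3, with 4 of 4 counted genes higher in library 3 and 2 past 1.5-fold. Erythroid markers summed to 806 and 1008 CPM, with 4 of 4 counted genes higher in library 3 and 0 past 1.5-fold. Skeletal muscle markers were on the other side, at 14.4 and 10.6 CPM, with 2 of 2 counted genes higher in library 2 and 1 of them past 1.5-fold. Endothelial markers, 5 of 5 higher in library 3 and 0 past 1.5-fold, summed to 258 and 299 CPM. Of 6 gastric identity markers, 4 were higher in library 2 and 2 in library 3. The 1 past 1.5-fold was higher in library 3, as ratios of library 3 to library 2 ran from 0.797 to 1.53. Markers of general epithelium summed to 1566 and 1577 CPM, and those of smooth muscle to 5727 and 5955 CPM. The part of cell composition in the ratios of Tead4, Tead1, Lats1 and Vgll4 was not tested.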

How the data were processed

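The authors deposited estimated counts by Ensembl gene identifier, without scaling (from the values: 28.5% to 29.1% of a column were not whole). Per the submitters' processing notes, the tools were Salmon 1.8.0, Trimmomatic 0.33, FastQC 0.10 and edgeR, with GRCm38 and mm10 as builds and no roles stated. The sources used here give neither annotation release nor strand setting. Samples were grouped by genotype and matched to columns by title; 2 further unnamed columns were not used. Whether each header name stands over its own column is not settled.

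CPM used the column total, same-numbered columns were averaged, and lengths and coordinates came from GENCODE M21 (GRCm38). The test of rounded counts was that of edgeR 4.0.16 (R 4.3.3; TMM, filterByExpr, quasi-likelihood F test, Benjamini-Hochberg adjustment over all tested genes, threshold 0.05, and the dispersion method that this version uses by default), with DESeq2 1.42.0 as an alternative. Both were also run on simulated counts. Those 4 columns were drawn independently, unlike the same-numbered columns here, so that run does not speak to this contrast. The p-values reflect only how far these columns spread. Poisson and ratio intervals are exact at 95%. A planned comparison of the proteins was not run.

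The 10 genes, the lists and the naming rule were chosen with earlier results of these data known. The rule named all 10 genes, Fgf9, in each pathway list the 4 highest and 2 lowest genes per length and the 2 farthest between libraries at a mean of at least 1 CPM, and the 2 markers of highest CPM per marker list. With 2 libraries, no likeness of pattern between genes was computed.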

Additional observations from a re-analysis of the deposited data

How the results depend on the processing

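The count of 0 of the 10 genes called between the labels was the same in each planned fit of all columns. These used RLE factors, no filter, at least 1 CPM in all columns, DESeq2 or the replicate block. Same-numbered columns differ by at most 3.01 reads for these genes, so that count was fixed in advance and says nothing of the loss of Fgf9. Over all genes the count was 0 with RLE factors and both other filters, 3 with DESeq2 and 1 to 2 when 1 column was left out, where a column left alone in its group is taken to vary as the other group does. With the replicate block it was 6, and with edgeR's newer dispersion method, tried after seeing the data, 1178 with the block and 0 without it; the 10 genes again had 0 calls. The numbers pair columns of 1 library: deviations from the group means correlated at 0.999 across genes. With 2 replicates a group, the deviations of replicate 3 mirror those of replicate 2, so this is 1 correlation and not 2. The log2 folds of the 10 genes stayed within -0.0011 to 0.00082 in fits of all columns and within -0.32 to 0.32 without 1 column, which then sets unequal numbers of library 2 and library 3 against each other.

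The CPM levels of the 10 genes were 1.25 times as high without the 10 most counted genes of the table and 0.993 to 1.01 times with the columns of a single label, and no ratio between libraries left its interval with the other library sizes or columns tried. Transcript length mattered most. With the median coding length, Lats2 over Lats1 was 2.67, coactivators over TEAD genes 0.115, kinases over coactivators 1.89, and the shares of Tead1 to Tead4 were 38.8%, 52.0%, 8.83% and 0.352%. With the union of exons, Wwtr1 over Yap1 was 0.992, Lats2 over Lats1 0.579, kinases over coactivators 0.767, and the shares 26.5%, 47.7%, 24.6% and 1.25%. With the APPRIS principal transcript, chosen after seeing the data, coactivators over TEAD genes were 0.473, kinases over coactivators 0.531, and the shares 20.1%, 37.5%, 37.6% and 4.81%. The change is in the divisor alone, and isoform use was not measured. Depth limits Tead4 most, and 2 libraries limit every comparison.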
